A study of Mus musculus with 9 samples.

Results

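The genes described here are those of the oxidative phosphorylation pathway in a study of mouse retinal ganglion cells (RGCs). A gene was a member when the pathway annotation in the deposited expression table gave it exactly the term oxidative phosphorylation, which held for 125 of the 22322 genes in the table. They comprised 1 mitochondrial-encoded gene, 24 genes of the vacuolar proton pump and 100 other nuclear-encoded genes. The last are called respiratory genes here because most of them encode subunits of the respiratory chain or of ATP synthase. The rest of the 100 were 4 assembly genes of complex IV, 5 gene copies and 6 other genes. The table held 12 further mitochondrial-encoded genes with no pathway term, and these are shown beside the members as related genes. RNA was sequenced from 3 groups of 3 replicated wells of wild-type RGCs that had been bought as a commercial cell product. They were normal RGCs, aging RGCs that had been exposed to D-galactose, and aging RGCs + USCs medium, which received D-galactose first and afterwards a medium that human urine-derived stem cells (USCs) had conditioned. The last of these is called the medium group. The stem cells themselves had been taken out of that medium. The paper names a special medium for the stem cells and a high glucose medium with serum for RGCs. None of the 3 groups received stem cell medium that had not been conditioned. Effects of the conditioning and of the medium itself therefore cannot be told apart. All 9 libraries came from wild-type cells, no age of the cells is given in the labels, and the wells of a group may share 1 preparation of cells, so the p-values measure the spread between these wells.

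Oxidative phosphorylation is the last step of respiration in mitochondria. Complexes I and II take electrons from NADH and succinate, complex III passes them to cytochrome c, complex IV passes them to oxygen, and ATP synthase uses the proton gradient that complexes I, III and IV build. A small number of subunits are encoded in mitochondrial DNA and transcribed there, and the rest are nuclear genes whose proteins are imported. The vacuolar proton pump, which the pathway term also covers, works the other way round: its cytosolic V1 sector splits ATP and its membrane V0 sector moves protons into lysosomes, endosomes and other compartments, which become acidic. Retinal ganglion cells are known for a high demand for mitochondrial ATP and for their loss in disorders of mitochondrial DNA.

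The libraries held between 18189616 and 22342288 expected counts, which are estimated read numbers per gene. Mitochondrial-encoded genes took 8.46%, 8.73% and 9.03% of the counts in normal RGCs, 9.22%, 9.49% and 9.71% in aging RGCs, and 9.97%, 9.88% and 9.72% in the medium group. Respiratory members took 0.667% to 0.740% of a library and proton pump members 0.128% to 0.162%. The markers of the labelled cell type were weak: of 13 RGC markers, 4 reached a mean of 1 CPM, a read count scaled to a common library size with TMM factors, and the RGC-defining transcription factor genes Pou4f2 and Pou4f3 had 0 counts in all 9 libraries. Summed over the 13 markers, levels were 143 to 155 CPM for normal RGCs, 102 to 105 for aging RGCs and 96.5 to 104 for the medium group, while no photoreceptor marker of 10 reached 1 CPM. The sums of the aging and medium groups were near each other while single markers moved apart. Nefl, a neurofilament gene, fell from a mean of 38.4 to 17.3 CPM with the medium at -1.16 ± 0.08 (SE, edgeR adjusted p = 3.99e-13). Tubb3, a neuronal tubulin gene, rose from 2.59 to 21.2 CPM at 3.03 ± 0.13 (SE, edgeR adjusted p = 3.07e-17). Some markers of other cell types were higher than those of RGCs, while others of the same lists were near 0. In normal RGCs the 7 epithelial markers summed to 1047 to 1141 CPM, with means of 410 for Krt8, 365 for Krt19 and 321 for Krt18. Of that list, Krt5 had 0 counts in all libraries, and Cdh1 and Krt14 stayed under 1 CPM. The mesenchymal marker Col3a1 had a mean of 447 CPM in normal RGCs, while Col1a2, Acta2, Dcn and Thy1 stayed under 1 CPM. The 12 macrophage markers summed to 77.3 to 88.4 CPM in normal RGCs, below the RGC markers. The name RGCs is that of the labels, and the identity of the cells was not tested. In bulk RNA, fewer cells of a type and less RNA per cell cannot be told apart.

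Of the 125 members, 103 passed the filter on low counts and were tested, namely 84 respiratory genes, 18 proton pump genes and mt-Nd4l. A gene was called when the edgeR quasi-likelihood test gave an adjusted p under 0.05 across the 12145 genes tested, with no requirement on the size of the change. The stricter calls with a log2 fold change of at least 1 are given as DEGs. At these depths most genes carried a precise estimate, so that small changes were called often: between aging and normal RGCs, 23.6% of all genes tested were called higher and 23% lower. The members' counts have to be read against these shares. Aging libraries enter both the comparison with normal RGCs and the comparison with the medium group, so values of the 2 comparisons are given side by side and are not independent of each other.

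Promoter sequences are shown first because members of one machine are often read by the same regulators. RefSeq start sites of GRCm38.p6 gave a window of 300 bases for 93 of 124 nuclear members. The windows were searched on both strands for GCGCANGCG, the core of the motif of the respiratory regulator NRF1, for CCGGAAG, the core bound by ETS factors such as GABP, and for TCACGTGA, a palindrome found in many lysosomal genes. Because the NRF1 core is nearly its own reverse complement, some places match on both strands with starts that overlap, and genes rather than matches were counted. The NRF1 core was found in 21 of 70 tested respiratory genes with a window (30%), in 15.54% of all genes tested and in 7.034% of all 27025 genes with a window. For the ETS core the shares were 18 of 70 (25.71%), 20.7% and 9.928%. The lysosomal core was found in 3 of 13 tested proton pump genes (23.08%), in 2.22% of all genes tested and in 1.125% of all genes. These matches describe letters only. Below are the stretches around the 3 lysosomal cores of pump genes, followed by stretches of respiratory members that are described further on: Ppa1 and Ndufb4 with an NRF1 core, and Cox10 with an ETS core. Capitals mark the match and each stretch is written 5′ to 3′ on the strand of its gene.
Atp6v0d1, chr8:105566055-105566114 on the minus strand: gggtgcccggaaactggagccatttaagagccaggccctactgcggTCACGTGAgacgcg
Atp6v0e, chr17:26676346-26676405 on the plus strand: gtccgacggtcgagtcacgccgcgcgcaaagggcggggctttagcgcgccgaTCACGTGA
Atp6v1a, chr16:44139357-44139416 on the minus strand: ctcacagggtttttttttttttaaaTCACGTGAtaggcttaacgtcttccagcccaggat
Ppa1, chr10:61648514-61648573 on the plus strand: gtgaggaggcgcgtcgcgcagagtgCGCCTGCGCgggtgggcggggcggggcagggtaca
Ndufb4, chr16:37654413-37654472 on the minus strand: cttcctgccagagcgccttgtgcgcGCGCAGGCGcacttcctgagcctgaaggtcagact
Cox10, chr11:64079465-64079524 on the minus strand: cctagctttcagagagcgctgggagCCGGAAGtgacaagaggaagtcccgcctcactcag

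The first question was how the D-galactose exposure and the conditioned medium bear on the vacuolar proton pump. In aging against normal RGCs, 12 of 18 tested pump genes were called higher and none lower, beside 23.6% and 23% of all genes tested. All 9 tested genes of the V0 sector were among the 12. In the medium group against aging RGCs, 11 of 18 were called lower and none higher, among them 8 of the 9 V0 genes, where 27.1% of all genes tested were called higher and 26% lower. By edgeR at an unadjusted p under 0.05, the counts in the missing directions were also 0 and 0, and DESeq2 gave 12 higher and 0 lower in aging RGCs and 0 higher and 10 lower with the medium. The median log2 fold change of the pump genes was 0.24 in aging against normal RGCs, beside 0.00 for all genes tested, and -0.22 in the medium group against aging RGCs, beside -0.01. For the V0 genes alone these medians were 0.29 and -0.36. The groups of the first comparison did not overlap for 13 of the 18 genes, all higher in aging RGCs, beside 27% higher and 26% lower over all genes tested. In the second they did not overlap for 12, all lower with the medium, beside 30.4% higher and 29.3% lower over all genes.

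The proton channel of V0 is a ring of proteolipid subunits. Atp6v0c, which encodes the most abundant of them, measured 302, 301 and 293 CPM in normal RGCs, 361, 365 and 377 CPM in aging RGCs, and 293, 298 and 291 CPM in the medium group. All 3 aging libraries lay above the other 6, which overlapped. The log2 fold change was 0.30 ± 0.03 (SE, adjusted p = 9.2e-09) in aging against normal RGCs and -0.32 ± 0.03 (SE, adjusted p = 1.7e-09) in the medium group against aging RGCs (edgeR). Atp6v0b, a second proteolipid gene, measured 44.1, 41.4 and 39.2 CPM in normal RGCs, 54.02, 47.2 and 51.4 CPM in aging RGCs, and 39.4, 39.2 and 37.1 CPM in the medium group, with log2 fold changes of 0.29 and -0.40. Its aging libraries also stood above all others. Atp6v0d1, which encodes the subunit that couples the ring to the stalk, measured 30.6, 35.3 and 33.7 CPM in normal RGCs, 43.7, 43.5 and 42.9 CPM in aging RGCs, and 33.1, 32.4 and 35.8 CPM in the medium group. The aging libraries were again the highest 3, with log2 fold changes of 0.39 and -0.36. Atp6ap1 encodes an accessory protein of V0 that is needed for its assembly. It measured 81.7, 84.4 and 86.5 CPM in normal RGCs, 111, 113 and 117 CPM in aging RGCs, and 90.5, 93.3 and 91.7 CPM in the medium group, which ordered the groups as normal, medium and aging with no overlap, and its change in aging RGCs was 0.44 ± 0.04 (SE, adjusted p = 9.28e-10) (edgeR). Atp6v0e, a small membrane subunit, was the V0 gene that was not called lower with the medium. It measured 62.4, 57.96 and 63.6 CPM in normal RGCs, 72.4, 68.1 and 67.4 CPM in aging RGCs, and 68.4, 71.4 and 66.4 CPM in the medium group, so the aging and medium libraries overlapped and both lay above the normal ones.

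The a subunit of V0, which holds the proton path and directs the pump to its compartment, is encoded by 4 genes. Per length, Tcirg1, Atp6v0a1 and Atp6v0a2 stood at mean FPKM of 21.9, 17.2 and 10.2, and Atp6v0a4, the form of kidney and inner ear, at 0.346. Tcirg1, the form known from osteoclasts, measured 63.5, 52.8 and 57.3 CPM in normal RGCs, 69.8, 65.9 and 73.4 CPM in aging RGCs, and 48.8, 44.3 and 44.9 CPM in the medium group. Its 3 groups did not overlap, with the medium group lowest, and the log2 fold changes were 0.27 in aging against normal RGCs, -0.60 ± 0.06 (SE, adjusted p = 2.72e-09) in the medium group against aging RGCs and -0.33 against normal RGCs (edgeR). Atp6v0a1, the form known from neurons, showed the same order, with 65.2, 61.9 and 61.1 CPM in normal RGCs, 72.2, 71.8 and 73.9 CPM in aging RGCs, and 48.6, 47.4 and 49.1 CPM in the medium group. Its log2 fold change with the medium was -0.59 ± 0.05 (SE, adjusted p = 4.65e-11) against aging RGCs and -0.38 against normal RGCs (edgeR). Atp6v0a2, a form of Golgi and endosomes, measured 52.7, 50.2 and 48.6 CPM in normal RGCs, 58.9, 61.2 and 61.5 CPM in aging RGCs, and 52.3, 49.8 and 48.2 CPM in the medium group, so that the medium and normal libraries overlapped below the aging ones. Atp6v0a4 was the only pump gene past the DEG threshold, with log2 fold changes of 1.42 ± 0.34 (SE, adjusted p = 0.00112) and -1.54 ± 0.35 (SE, adjusted p = 0.000526) in the 2 comparisons (edgeR), where DEGs were 1.09% (higher) and 1.56% (lower) of all genes tested in the first and 1.24% and 4.21% in the second. It rests on few reads, namely 14, 20 and 13 counts in normal RGCs, 42, 41 and 31 in aging RGCs and 10, 21 and 9 in the medium group, and it overlaps D630045J12Rik on its own strand. Atp6v0d2, the osteoclast form of the d subunit, had 0 to 14 counts per library and was not tested.

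In the V1 sector the shares called in the direction of V0 were nearer to those of all genes. Of its 9 tested genes, 3 (33.3%) were called higher in aging RGCs and 0 lower, beside 23.6% and 23% of all genes tested. With the medium 3 (33.3%) were called lower and 0 higher, beside 26% and 27.1%. The log2 fold change was above 0 for 7 of the 9 genes in aging RGCs and for 1 with the medium. Those higher in aging RGCs were Atp6v1d, a subunit of the central stalk, Atp6v1h, a regulatory subunit, and Atp6v1c1, which links the sectors, at log2 fold changes of 0.27, 0.17 and 0.13. Those lower with the medium were Atp6v1b2 and Atp6v1a, the catalytic core, and Atp6v1e1, a peripheral stalk subunit, at -0.20, -0.15 and -0.12. Atp6v1a, the pump gene with the most reads of V1, measured 212, 221 and 216 CPM in normal RGCs, 226, 216 and 206 CPM in aging RGCs, and 198, 198 and 189.5 CPM in the medium group. Its normal and aging libraries overlapped and the medium libraries lay below both. Atp6v1g1, of the peripheral stalk, had the highest level per length of V1 with means of 66.3, 68.2 and 67.8 CPM, and its brain form Atp6v1g2 had means of 1.16, 1.54 and 1.30 CPM. Neither was called in any comparison. Atp6v1f, of the central stalk, was called in the medium group against normal RGCs alone, at -0.29. Whether V0 and V1 differed in their response was not tested. The 3 pump genes whose promoters hold the lysosomal core were not alike: Atp6v0d1 rose and fell with the rest of V0, Atp6v0e was called higher in aging RGCs and was not called with the medium, and Atp6v1a was called lower with the medium and was not called in aging RGCs.

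**Figure D1:**
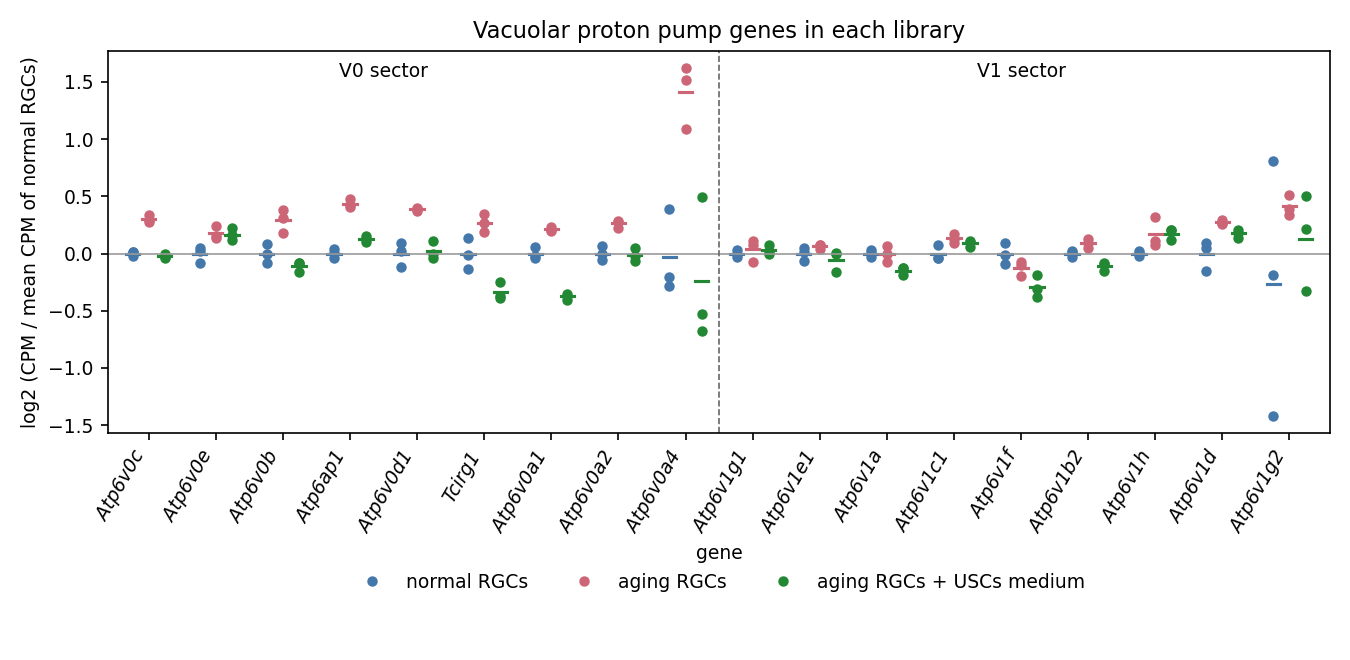
The 18 tested vacuolar proton pump genes, on the x axis from the highest to the lowest mean FPKM within each sector. The y axis is the log2 ratio of each library's CPM to the mean CPM of normal RGCs, each point is 1 library, and short lines are the means of the 3 log2 ratios of a group. In the V0 sector the 3 aging libraries lie above the 3 normal ones for each of the 9 genes, while several V1 genes overlap.

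Against normal RGCs, the medium group had 4 pump genes higher and 5 lower, where 30.6% and 29.9% of all genes tested were called, with a median of -0.02. Leaving out the TMM factors moved the median log2 fold change of all genes in this comparison from -0.01 to -0.11. It gave 0 pump genes higher and 8 lower, where 2593 of all 12145 genes tested were called higher and 4889 lower. The split in this comparison therefore depends on the scaling. The V0 counts of 9 higher and 8 lower in the other 2 comparisons were the same in each of 19 other settings without a fold-change threshold. The pump genes with no overlapping gene and with whole counts numbered 10 among those tested. Of these, 7 (70%) were called higher in aging RGCs and 0 lower, beside 23.6% and 23% of all genes tested. With the medium against aging RGCs 5 (50%) were called lower and 0 higher, beside 26% and 27.1%. The summed level of 12 macrophage markers, cells in which Tcirg1 and lysosomal genes are abundant, was 77.3 to 88.4 CPM for normal RGCs, 65.5 to 69.7 for aging RGCs and 47.6 to 74.9 for the medium group, and 6 of the 12 reached a mean of 1 CPM with none at 0 in all libraries. Most of the sum was Cd68 and Cd14. With the medium Cd68 was called lower at -0.41 and Cd14 higher at 0.25, and neither was called in aging against normal RGCs. Other markers of the list had patterns of their own. Lyz2, the lysozyme of macrophages, measured 22.6, 10.2 and 13.1 CPM in normal RGCs, 6.38, 1.18 and 1.92 CPM in aging RGCs, and 2.31, 0.992 and 12.3 CPM in the medium group. Adgre1, which encodes the macrophage surface protein F4/80, measured 2.47, 0.921 and 2.12 CPM, 0.108, 0 and 0.0506 CPM, and 0.103, 0.0992 and 1.64 CPM in the same order. C1qb and C1qc, complement genes of macrophages, had 0 counts in all aging libraries. For Lyz2, Adgre1, C1qb and C1qc, medium replicate 3 lay above the other 5 libraries that had received D-galactose. Mrc1, the mannose receptor gene, was called higher in aging RGCs at 0.49 and lower with the medium at -1.31. The 7 mesenchymal markers summed to 428 to 509, 396 to 408 and 242 to 246 CPM, and the 7 epithelial markers to 1047 to 1141, 1077 to 1103 and 1236 to 1285 CPM. The part of the macrophage, mesenchymal and epithelial markers in the pump result was not tested.

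Regulators and partners of the pump, are a list of 15 genes that are not members. In aging RGCs 4 (26.7%) were called higher and 5 (33.3%) lower, beside 23.6% and 23% of all genes, and with the medium 4 (26.7%) higher and 3 (20%) lower, beside 27.1% and 26%, which is near the background. Atp6ap2, a second accessory protein of the pump, had means of 128, 121 and 88.8 CPM in normal RGCs, aging RGCs and the medium group, with a log2 fold change of -0.45 ± 0.05 (SE, edgeR adjusted p = 5.56e-09) with the medium. Tfeb, a transcription factor that switches on lysosomal genes through the palindrome searched above, had means of 19.04, 15.5 and 22.1 CPM. It was called lower in aging RGCs at -0.30 ± 0.08 (SE, edgeR adjusted p = 0.00342) and higher with the medium at 0.52 ± 0.08 (SE, edgeR adjusted p = 5.2e-06). Tfe3 and Mitf of the same list were called lower in aging RGCs at -0.38 and -0.47. With the medium Mitf was called higher at 0.22 and Tfe3 was not called. The part of these genes in the levels of the pump genes was not tested.

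The second set is the 13 genes of mitochondrial DNA, of which mt-Nd4l alone carries the pathway term. The libraries were made from mRNA selected with oligo(dT), which favours transcripts with a poly(A) tail. Whether the reads of each of the 13 genes came from such transcripts was not tested. Against normal RGCs, aging RGCs had 6 of the 13 called higher and 1 lower, beside 23.6% and 23% of all genes tested. The count lower was 4 without normal replicate 1 and 4 without TMM factors. Those higher were mt-Co1 and mt-Co3, catalytic core subunits of complex IV, mt-Cytb, the cytochrome b of complex III, and mt-Nd4, mt-Nd5 and mt-Nd6, membrane subunits of complex I. With the medium against aging RGCs, 5 were called higher and 5 lower, beside 27.1% and 26%, and against normal RGCs 8 were higher and 3 lower, beside 30.6% and 29.9%. The 5 higher with the medium were 2 without TMM factors and 3 without aging replicate 1. The median log2 fold changes of the 13 were 0.05, 0.07 and 0.12 in the 3 comparisons.

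The gene with the most reads of all members and related genes was mt-Co1, with 20030.2, 20346 and 21519.7 CPM in normal RGCs, 22927, 23736 and 23769.6 CPM in aging RGCs, and 32440.2, 32269 and 31165 CPM in the medium group. The 3 groups did not overlap and lay in the order normal, aging, medium. The log2 fold change was 0.19 ± 0.03 (SE, adjusted p = 1.23e-06) in aging against normal RGCs, 0.44 ± 0.03 (SE, adjusted p = 4.33e-14) in the medium group against aging RGCs and 0.63 ± 0.03 (SE, adjusted p = 1.31e-17) against normal RGCs (edgeR). The same order without overlap held for mt-Co3, with 5024, 5169.8 and 5337 CPM in normal RGCs, 5708, 5786 and 5769 CPM in aging RGCs, and 6769.8, 6830.2 and 6626 CPM in the medium group. Its log2 fold changes were 0.15, 0.23 and 0.38. The third complex IV gene, mt-Co2, measured 11356, 12112 and 12195 CPM in normal RGCs, 11081, 11606 and 11884 CPM in aging RGCs, and 12612, 12185 and 12266 CPM in the medium group. Normal and aging libraries overlapped, and the difference between the medium group and aging RGCs was 0.10 ± 0.03 (SE, adjusted p = 0.00424) (edgeR).

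The complex I gene mt-Nd3 went the other way. It measured 1148, 1259.5 and 989 CPM in normal RGCs, 992, 879.96 and 960.4 CPM in aging RGCs, and 705, 794 and 739 CPM in the medium group, and it was called lower in each comparison, at -0.26, -0.34 and -0.60 ± 0.05 (SE, adjusted p = 1.8e-10) (edgeR). One normal and 1 aging library overlapped, while all 3 medium libraries lay below the other 6. The member mt-Nd4l measured 284, 359 and 269.7 CPM in normal RGCs, 304, 292 and 336 CPM in aging RGCs, and 240.3, 274 and 267 CPM in the medium group, with normal and aging libraries overlapping and a change of -0.25 ± 0.07 (SE, adjusted p = 0.00199) in the medium group against aging RGCs (edgeR). It shares a single bicistronic mRNA with mt-Nd4, which overlaps its end, yet mt-Nd4 measured 5812, 6159.9 and 6514 CPM in normal RGCs, 7551, 7992 and 7974 CPM in aging RGCs, and 7432, 7281 and 7007 CPM in the medium group and was called higher in aging RGCs at 0.35. Similarly, mt-Atp8 and mt-Atp6, ATP synthase subunits on another shared mRNA, measured means of 532, 489 and 552 and 9178, 9533 and 9979 CPM in normal RGCs, aging RGCs and the medium group. The genes mt-Nd4l, mt-Nd3 and mt-Atp8 are the shortest of the 13, at 297, 348 and 204 bases of exonic length.

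Position on the mitochondrial genome was shared by some of these changes. The last 4 genes in its annotated order are mt-Nd4, mt-Nd5, mt-Nd6 and mt-Cytb, and their log2 fold changes in aging against normal RGCs were 0.35, 0.41, 0.31 and 0.31, the 4 highest of the 13. With the medium against aging RGCs, mt-Nd4 and mt-Cytb were called lower at -0.11 and -0.12, and mt-Nd5 and mt-Nd6 were not called. The gene mt-Nd6 is read from the other strand and overlaps the end of mt-Nd5, and the sources used here do not state if reads were counted by strand. The 2 early genes mt-Nd1 and mt-Nd2 measured means of 9407, 9547 and 9874 and 6213, 5936 and 5449.8 CPM, and neither was called in aging against normal RGCs.

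**Figure D2:**
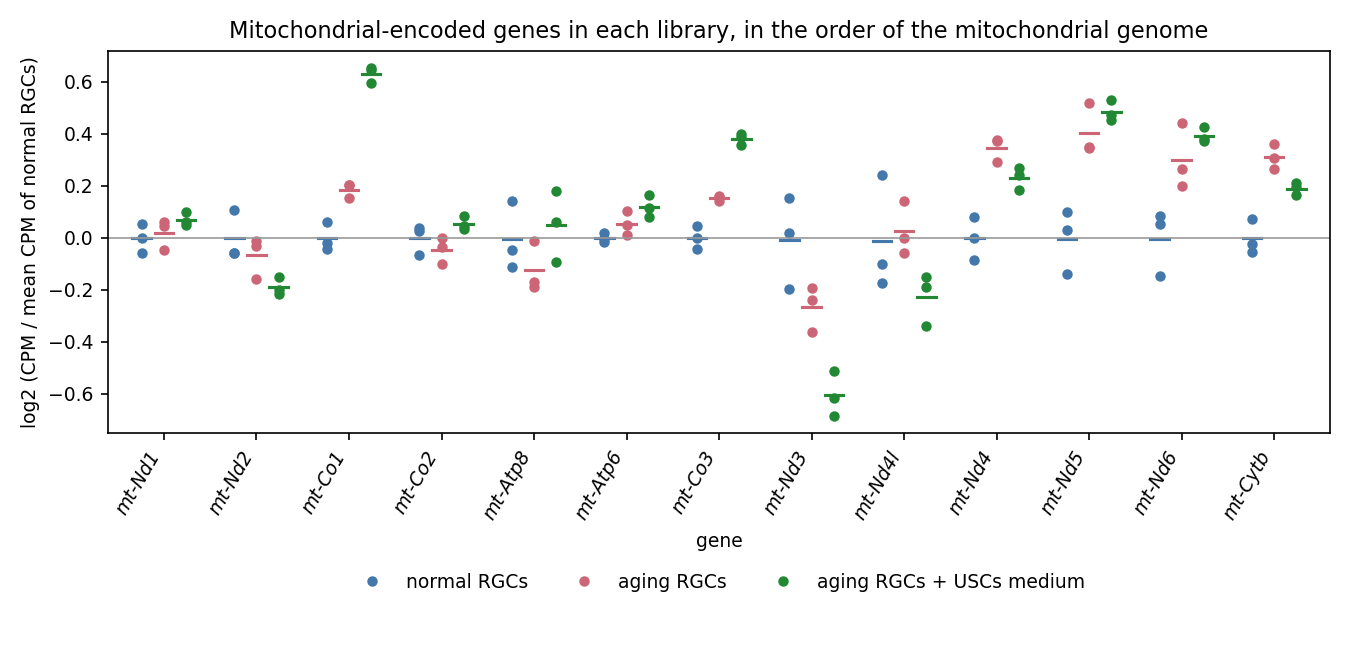
The 13 mitochondrial-encoded genes in their order on the mitochondrial genome, x axis, with the log2 ratio of each library's CPM to the mean CPM of normal RGCs on the y axis. Points are libraries and short lines are means of the 3 log2 ratios; mt-Co1 of the medium group is the highest at 0.63 against normal RGCs and mt-Nd3 of the medium group the lowest at -0.60.

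A list of 25 genes for the transcription and upkeep of mitochondrial DNA had 8 (32%) called higher and 2 (8%) lower in aging RGCs, beside 23.6% and 23% of all genes, and 12 (48%) higher and 1 (4%) lower with the medium, beside 27.1% and 26%. The factor Tfam, which packs and starts transcription of the mitochondrial genome, was not called in any comparison, with means of 71.3, 67.7 and 70.2 CPM. Fastkd5, which is needed to process some mitochondrial transcripts, had means of 19.2, 29.02 and 31.5 CPM and was called higher in aging RGCs at 0.60 ± 0.08 (SE, edgeR adjusted p = 3.27e-07) and in the medium group against normal RGCs at 0.72 ± 0.08 (SE, edgeR adjusted p = 4.76e-09). Mterf1b, of a family that ends mitochondrial transcription, was a DEG with the medium at 1.04 ± 0.39 (SE, edgeR adjusted p = 0.0269), on means of only 0.833, 0.552 and 1.14 CPM.

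The third and largest set is the respiratory genes. In aging against normal RGCs, 18 of 84 tested genes (21.4%) were called higher and 6 (7.14%) lower, so the share called higher was close to the 23.6% of all genes and the share called lower was below the 23%. In the medium group against aging RGCs, 32 (38.1%) were called higher and 6 (7.14%) lower, beside 27.1% and 26% of all genes tested. Against normal RGCs 45 (53.6%) were called higher and 4 (4.76%) lower, beside 30.6% and 29.9%. The changes were small, with median log2 fold changes of 0.06, 0.09 and 0.15, beside 0.00, -0.01 and -0.01 for all genes tested. One DEG was among them, Ppa1, which lies outside the complexes. It was a DEG in the medium group against normal RGCs, where DEGs were 1.47% (higher) and 5.24% (lower) of all genes tested. Without TMM factors the medium group had 19 higher and 11 lower against aging RGCs, and 25 higher and 10 lower against normal RGCs. In that setting 2346 of all 12145 genes tested were higher and 4199 lower against aging RGCs, and 2593 and 4889 against normal RGCs. With limma on log2(FPKM + 1) the counts higher were 16 and 22, beside 2069 and 2367 of all 12145 genes. Without aging replicate 1, the count higher in aging against normal RGCs was 11, beside 2504 of 12281 genes.

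Respiratory genes are short, and calls of all genes varied with length. The exonic length that relates the counts to FPKM had a median of 760 bases in the tested respiratory genes and of 2738 bases in all genes tested. With the medium against aging RGCs, the median log2 fold change of all genes tested was 0.09 for those under 800 bases, 0.08 from 800 to under 2000 bases and -0.04 from 2000 bases. Among respiratory genes under 800 bases, 11 of 46 (23.9%) were called higher, beside 32.7% of the 416 genes of that length. From 800 to under 2000 bases, 16 of 32 (50%) were called higher, beside 34.9% of 3378 genes, and of the 6 longer ones 5 were, beside 23.7% of 8351. Against normal RGCs these shares were 45.7% beside 36.5%, 59.4% beside 38.5%, and 5 of 6 beside 27.1%. Of respiratory genes under 800 bases, 4.35%, 6.52% and 6.52% were called lower in the 3 comparisons. Of all genes of that length, 13%, 11.1% and 11.5% were. From 800 to under 2000 bases, 12.5%, 9.38% and 3.12% of respiratory genes were called lower, beside 20%, 15.8% and 19.9%. The median log2 fold change of respiratory genes under 800 bases was 0.04 with the medium against aging RGCs, below the 0.09 of all genes of that length. The share of respiratory genes called higher with the medium was larger in the longer classes, while that of all genes was smallest from 2000 bases. Of the V0 genes, 4 of 4 from 800 to under 2000 bases and 5 of 5 from 2000 bases were higher in aging RGCs, beside 22.9% and 24.2% of all genes tested of those lengths. With the medium against aging RGCs, 3 of 4 and 5 of 5 were lower, beside 15.8% and 30.8%. The part of length in these results was not tested.

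**Figure D3:**
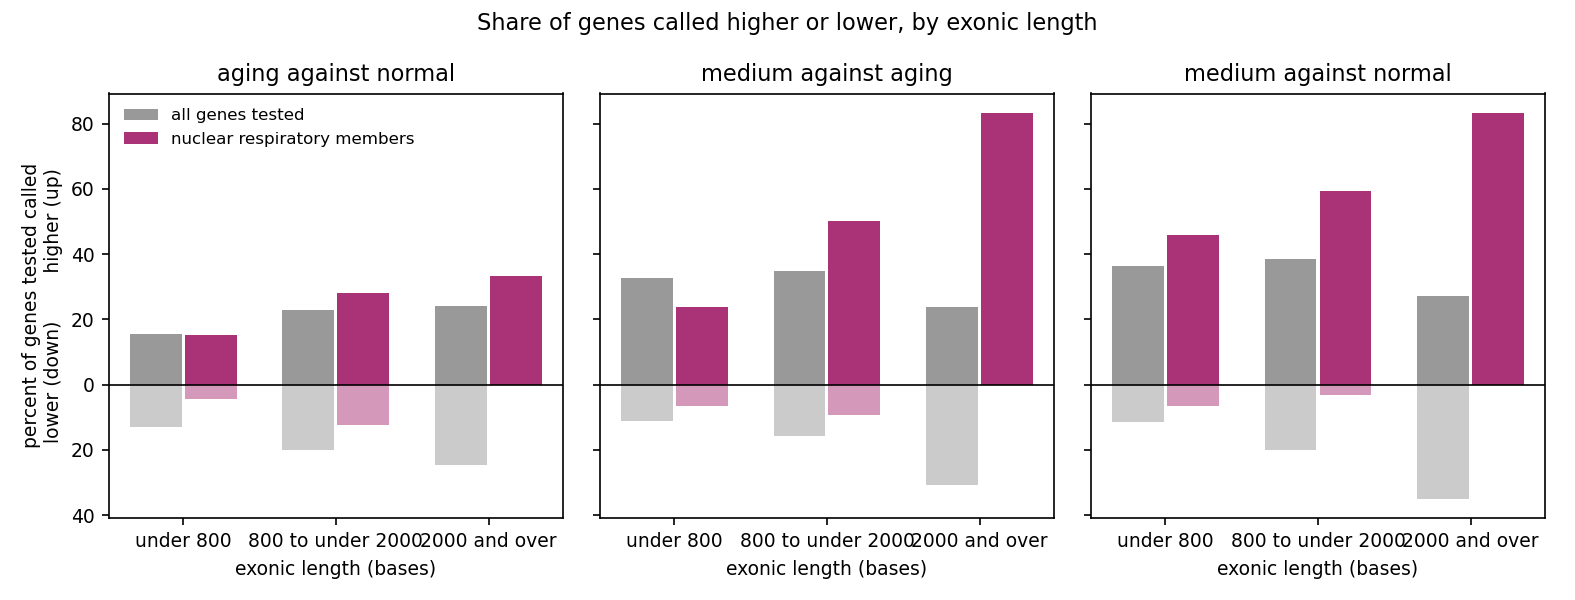
Percent of genes tested that were called higher (bars up from 0) or lower (bars down, paler) in each comparison, by exonic length in bases, for all genes tested (grey) and respiratory genes (purple). The purple bar for genes under 800 bases reaches 23.9% higher in the medium group against aging RGCs, under the grey bar at 32.7%; the purple bars for 2000 bases and over rest on 6 genes.

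Complex I, with 37 tested nuclear subunits, had 7 (18.9%) called higher and 2 (5.41%) lower in aging RGCs, beside 23.6% and 23% of all genes tested. With the medium 12 (32.4%) were higher and 2 (5.41%) lower, beside 27.1% and 26%. Against normal RGCs the medium group had 17 (45.9%) higher and 1 (2.70%) lower, beside 30.6% and 29.9%. The subunits called higher with the medium were led by Ndufs4, an accessory subunit of the electron input arm, with 29.4, 31.4 and 30.5 CPM in normal RGCs, 28.6, 28.5 and 29.7 CPM in aging RGCs, and 34.5, 40.3 and 38.2 CPM in the medium group. All 3 medium libraries lay above the other 6, and the log2 fold change was 0.38 ± 0.07 (SE, adjusted p = 1.71e-05) against aging RGCs (edgeR). The subunit Ndufv3 of the same arm went down. It measured 99.8, 100.03 and 97.4 CPM in normal RGCs, 93.6, 86.5 and 91.1 CPM in aging RGCs, and 66.9, 72.4 and 68.8 CPM in the medium group, an order of normal, aging, medium without overlap, with log2 fold changes of -0.13, -0.38 and -0.51 ± 0.04 (SE, adjusted p = 7.58e-11) (edgeR). In the membrane arm, Ndufb4 measured 27.4, 26.2 and 27.1 CPM in normal RGCs, 24.8, 21.8 and 20.96 CPM in aging RGCs, and 25.7, 29.6 and 27.7 CPM in the medium group, lower in all 3 aging libraries than in the other 6, with log2 fold changes of -0.26 and 0.30. Ndufb2, another small membrane subunit, was called lower with the medium at -0.50 on means of 9.44, 11.3 and 8.02 CPM, and its locus overlaps Braf on the other strand. Ndufb10, with the highest level per length among the membrane arm and other subunits, had means of 54.4, 57.03 and 58.5 CPM and was not called in any comparison. The 17 tested assembly factors of complex I had 4 (23.5%) higher and 4 (23.5%) lower in aging RGCs, beside 23.6% and 23%. With the medium 7 (41.2%) were higher and 0 lower by edgeR, beside 27.1% and 26%. At an unadjusted p under 0.05, 1 factor was lower with the medium, and DESeq2 gave 0. Those with the largest changes were Ndufaf3, at means of 3.98, 2.64 and 4.22 CPM, and Ecsit, at 11.98, 12.5 and 19.1 CPM, with log2 fold changes of 0.68 ± 0.20 (SE, edgeR adjusted p = 0.00479) and 0.61 ± 0.09 (SE, edgeR adjusted p = 3.23e-06) with the medium.

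Complex II, the succinate dehydrogenase of the citric acid cycle, had 1 of 4 subunits (25%) higher in aging RGCs, beside 23.6% of all genes tested. With the medium 2 (50%) were higher, beside 27.1%. Sdhb, its iron-sulfur subunit, measured 65.9, 57.04 and 59.4 CPM in normal RGCs, 67.8, 61.8 and 62.6 CPM in aging RGCs, and 79.6, 83.7 and 74.9 CPM in the medium group. Normal and aging libraries overlapped and all medium libraries lay above them, with log2 fold changes of 0.31 ± 0.06 (SE, adjusted p = 2.67e-05) against aging RGCs and 0.38 against normal RGCs (edgeR). Sdhd, a membrane anchor, was the one higher in aging RGCs, at 0.22 on means of 84.4, 98.2 and 102 CPM. Enzymes of the citric acid cycle and pyruvate entry were a list of 19 genes. In aging RGCs 4 (21.1%) were higher and 6 (31.6%) lower, beside 23.6% and 23% of all genes tested. With the medium 16 (84.2%) were higher and 1 (5.26%) lower, beside 27.1% and 26%, with a median of 0.29. Pdha1, of pyruvate dehydrogenase, had means of 118, 132 and 177 CPM and was higher with the medium at 0.42 ± 0.04 (SE, edgeR adjusted p = 4.56e-10). Pcx, pyruvate carboxylase, was lower, with means of 47.8, 22.5 and 17.9 CPM and log2 fold changes of -1.09 ± 0.07 (SE, edgeR adjusted p = 1.34e-12) in aging against normal RGCs and -0.33 ± 0.08 (SE, edgeR adjusted p = 0.00127) with the medium.

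In complex III, which hands electrons to cytochrome c, 2 of 9 subunits (22.2%) were called lower in aging RGCs and 0 higher by edgeR. Of all genes tested, 23% were lower and 23.6% higher. The count higher was also 0 at an unadjusted p under 0.05 and by DESeq2. With the medium 6 (66.7%) were called higher and 1 (11.1%) lower, beside 27.1% and 26%. Uqcrc2, a core subunit, measured 114, 124 and 119 CPM in normal RGCs, 105, 105 and 105 CPM in aging RGCs, and 153, 154 and 142 CPM in the medium group. The 3 groups did not overlap, and aging RGCs were lowest and the medium group highest, with log2 fold changes of -0.18 ± 0.04 (SE, adjusted p = 0.00101) and 0.51 ± 0.04 (SE, adjusted p = 3.75e-11) (edgeR). Its counts carried fractions in 4 libraries and it overlaps Pdzd9 on the other strand. Uqcrq, a small subunit near the quinone site, showed the same order with 91.6, 95.9 and 91.97 CPM in normal RGCs, 82.1, 75.7 and 73.7 CPM in aging RGCs, and 108, 118 and 104 CPM in the medium group. Its log2 fold changes were -0.27 ± 0.05 (SE, adjusted p = 4.55e-05) in aging against normal RGCs, 0.51 ± 0.05 (SE, adjusted p = 1.02e-09) with the medium, and 0.24 in the medium group against normal RGCs (edgeR). Cyc1, the cytochrome c1 of the complex, measured 106, 106 and 104 CPM in normal RGCs, 104, 98.9 and 97.1 CPM in aging RGCs, and 126, 132 and 132 CPM in the medium group and was called with the medium at 0.38 ± 0.04 (SE, adjusted p = 5.25e-09) (edgeR). The core subunit Uqcrc1 measured 121, 114 and 120.2 CPM in normal RGCs, 119, 126 and 123 CPM in aging RGCs, and 151, 159 and 149.9 CPM in the medium group, with normal and aging libraries overlapping below the medium ones and a log2 fold change of 0.32 with the medium. The subunit called lower with the medium was Uqcr10, at -0.21 and means of 49.6, 51.8 and 44.8 CPM.

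**Figure D4:**
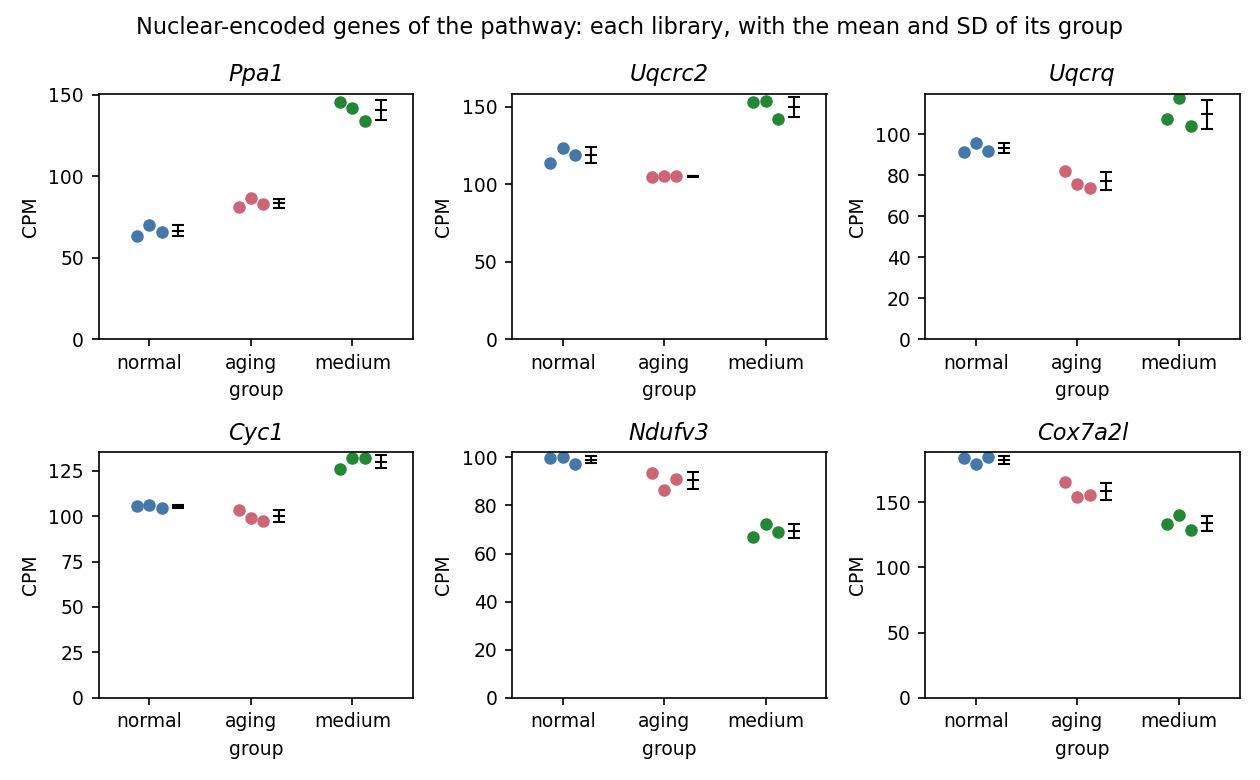
CPM of 6 respiratory members in each group (x axis) with 1 point per library and the mean ± SD of the 3 libraries at the right of each group; the y axes start at 0. Ppa1 rises from 63.4 to 70.1 CPM in normal RGCs to 134 to 146 in the medium group, Uqcrc2 and Uqcrq are lowest in aging RGCs, and Ndufv3 and Cox7a2l fall from normal RGCs to the medium group.

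Complex IV had 20 members, counting the Ndufa4 pair, and 12 were tested. In aging RGCs 3 (25%) were called higher and 1 (8.33%) lower, beside 23.6% and 23% of all genes tested. With the medium 2 (16.7%) were higher and 1 (8.33%) lower, beside 27.1% and 26%, and against normal RGCs 9 (75%) were higher and 1 (8.33%) lower, beside 30.6% and 29.9%. The gene called lower in each comparison was Cox7a2l, whose product joins complexes III and IV into supercomplexes. It measured 184, 179 and 185 CPM in normal RGCs, 166, 154 and 155 CPM in aging RGCs, and 133, 140.04 and 129 CPM in the medium group. The 3 groups lay in the order normal, aging, medium without overlap, and the log2 fold changes were -0.21 ± 0.04 (SE, adjusted p = 7.73e-05), -0.24 ± 0.04 (SE, adjusted p = 9.42e-06) and -0.45 ± 0.04 (SE, adjusted p = 9.49e-11) (edgeR). Its relative Cox7a2, the common form of subunit 7a, measured 35.1, 33.3 and 37.2 CPM in normal RGCs, 45.6, 39.8 and 41.9 CPM in aging RGCs, and 41.8, 44.9 and 38.4 CPM in the medium group, and it was called higher in aging RGCs at 0.27. Cox8a had the highest level per length of the nuclear complex IV members, at a mean of 263 FPKM, and Cox6a1 and Cox4i1 followed at 180.3 and 175 FPKM. The latter 2 genes were not called in any comparison. Cox6b1, the common form of subunit 6b, was called in the medium group against normal RGCs at 0.20, on means of 75.2, 80.6 and 86.5 CPM. Ndufa4, a subunit of complex IV despite its name, measured 48.5, 48.9 and 49.3 CPM in normal RGCs, 52.3, 51.1 and 55.7 CPM in aging RGCs, and 59.7, 61.3 and 59.2 CPM in the medium group and was called higher in the medium group at 0.18 against aging RGCs and 0.30 against normal RGCs. Of 4 assembly genes with the pathway term, Cox10, which makes the heme precursor of complex IV, was called higher with the medium. It measured 20.01, 17.6 and 18.6 CPM in normal RGCs, 19.5, 19.1 and 20.6 CPM in aging RGCs, and 24.4, 26.4 and 23.7 CPM in the medium group, with all medium libraries above the others and a log2 fold change of 0.33 ± 0.08 (SE, adjusted p = 0.000598) (edgeR), and it overlaps 2 genes on the other strand. Cox17, a copper carrier to complex IV, was called lower in the medium group against normal RGCs at -0.27.

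ATP synthase had 15 tested nuclear subunits. In aging RGCs 5 (33.3%) were called higher and 1 (6.67%) lower, beside 23.6% and 23% of all genes tested. With the medium 8 (53.3%) were higher and 1 (6.67%) lower, beside 27.1% and 26%. Against normal RGCs the medium group had 9 (60%) higher and 0 lower by edgeR, beside 30.6% and 29.9%. That count lower was also 0 at an unadjusted p under 0.05 and by DESeq2. Atp5b, the catalytic beta subunit, had the highest level per length of all nuclear members, at a mean of 492 FPKM. It measured 896, 893 and 914 CPM in normal RGCs, 911, 898 and 895 CPM in aging RGCs, and 1017, 1060.2 and 1009 CPM in the medium group. Normal and aging libraries overlapped, the medium libraries lay above them, and the log2 fold change with the medium was 0.19 ± 0.03 (SE, adjusted p = 2.65e-06) (edgeR). Atp5pb, of the peripheral stalk, measured 263, 274 and 276 CPM in normal RGCs, 303, 310.4 and 308 CPM in aging RGCs, and 364, 382 and 369 CPM in the medium group. Its groups did not overlap, in the order normal, aging, medium, with log2 fold changes of 0.18 ± 0.03 (SE, adjusted p = 4.5e-05), 0.28 ± 0.03 (SE, adjusted p = 4.38e-08) and 0.46 ± 0.03 (SE, adjusted p = 1.34e-12) (edgeR), its counts carried fractions in 2 libraries, and it overlaps Wdr77 on the other strand. The ring subunit c is encoded by 3 genes that make the same mature protein. Atp5g3, Atp5g2 and Atp5g1 stood at mean FPKM of 169, 138 and 125. Atp5g1 measured 75.8, 77.2 and 77.2 CPM in normal RGCs, 92.4, 85.8 and 82.8 CPM in aging RGCs, and 93.5, 108 and 97.8 CPM in the medium group and was called higher in each comparison, at 0.18, 0.20 and 0.38. Atp5g2 was called higher with the medium at 0.20, and Atp5g3, with means of 122, 118 and 124 CPM, was not called. Atp5d, the delta subunit of the rotor, was the one called lower in aging RGCs, at -0.13, on means of 55.3, 50.4 and 54.3 CPM.

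**Figure D5:**
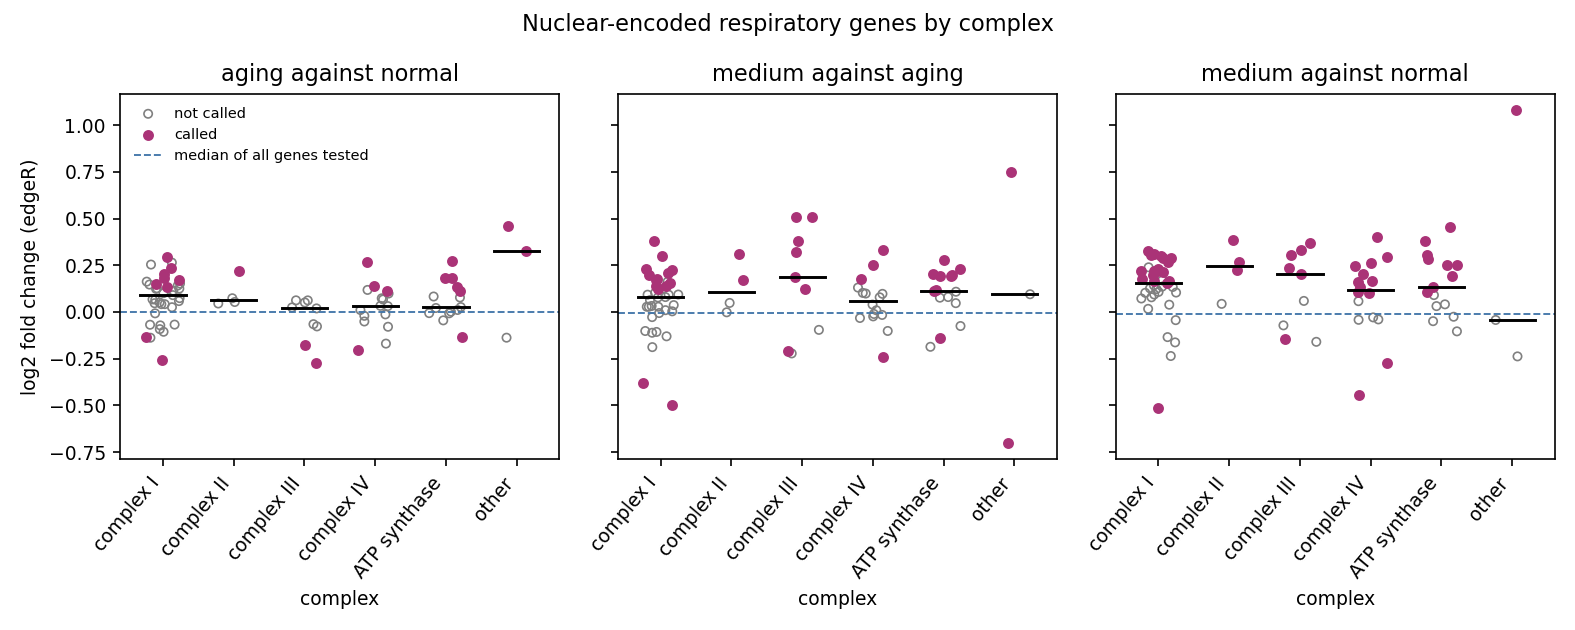
Log2 fold change (edgeR, y axis) of the 84 tested respiratory genes by complex (x axis) in the 3 comparisons, with filled points for called genes, open points for others and black lines for the median of a complex; complex IV includes its 4 assembly genes. The dashed line is the median of all genes tested. Most points lie within 0.5 of 0, and Ppa1 in the panel of the medium group against normal RGCs is the highest point.

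Outside the complexes, the largest change belonged to Ppa1, the cytosolic pyrophosphatase that removes the pyrophosphate left by biosynthetic reactions. It measured 63.4, 70.1 and 66.1 CPM in normal RGCs, 81.2, 86.5 and 82.8 CPM in aging RGCs, and 146, 142 and 134 CPM in the medium group. The groups did not overlap and lay in the order normal, aging, medium, with log2 fold changes of 0.33 ± 0.05 (SE, adjusted p = 1.78e-06), 0.75 ± 0.05 (SE, adjusted p = 5.5e-14) and 1.08 ± 0.05 (SE, adjusted p = 1.64e-17) (edgeR). Its mitochondrial relative Ppa2 measured 21.6, 27.04 and 24.9 CPM in normal RGCs, 23.04, 22.97 and 20.8 CPM in aging RGCs, and 23.3, 26.4 and 21.6 CPM in the medium group, overlapped in all groups and was not called. Lhpp, a phosphatase of low level, measured 3.64, 3.78 and 3.70 CPM in normal RGCs, 5.30, 5.41 and 4.61 CPM in aging RGCs, and 2.98, 4.07 and 2.36 CPM in the medium group and was called higher in aging RGCs at 0.46 ± 0.18 (SE, adjusted p = 0.0361) and lower with the medium at -0.70 ± 0.19 (SE, adjusted p = 0.00226) (edgeR), and its locus overlaps Fgfr2 on the other strand.

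The carriers that link the complexes were a list of 24 tested genes for ubiquinone, cytochrome c and mitochondrial exchange. In aging RGCs 9 (37.5%) were called higher and 3 (12.5%) lower, beside 23.6% and 23% of all genes tested. With the medium 13 (54.2%) were higher and 4 (16.7%) lower, beside 27.1% and 26%. The 2 with the largest changes act in ubiquinone synthesis: Coq8b had means of 14.9, 11.5 and 24.7 CPM and a log2 fold change of 1.10 ± 0.10 (SE, edgeR adjusted p = 4.14e-10) with the medium. Coq8a, which rests on few reads, had means of 0.379, 0.749 and 0.151 CPM and -2.25 ± 0.58 (SE, edgeR adjusted p = 0.00183). The adenine nucleotide translocases exchange ATP for ADP. Of their genes, Slc25a5 had means of 291, 329 and 434 CPM and Slc25a4 of 280.4, 337 and 327 CPM. The 32 tested assembly factors of complexes II to V had 6 (18.75%) higher and 3 (9.38%) lower in aging RGCs, beside 23.6% and 23%. With the medium 10 (31.25%) were higher and 2 (6.25%) lower, beside 27.1% and 26%. Sco2, a copper chaperone of complex IV, had means of 5.01, 9.78 and 7.03 CPM and was higher in aging RGCs at 0.95 ± 0.18 (SE, edgeR adjusted p = 9.12e-05), and Lyrm7, an assembly factor of complex III, had means of 3.12, 1.86 and 3.29 CPM and was lower in aging RGCs at -0.76 ± 0.24 (SE, edgeR adjusted p = 0.011) and higher with the medium at 0.83 ± 0.24 (SE, edgeR adjusted p = 0.00501). Among 9 tested regulators of respiratory genes, 2 (22.2%) were higher and 3 (33.3%) lower in aging RGCs, beside 23.6% and 23%. With the medium 2 (22.2%) were higher and 1 (11.1%) lower, beside 27.1% and 26%. Gabpb1, the beta subunit of the ETS factor GABP, had means of 43.1, 36.3 and 48.1 CPM with changes of -0.25 ± 0.07 (SE, edgeR adjusted p = 0.00404) and 0.40 ± 0.07 (SE, edgeR adjusted p = 1.27e-05), and the nuclear receptor gene Esrra had means of 14.3, 10.7 and 10.7 CPM and was lower in aging RGCs at -0.41 ± 0.11 (SE, edgeR adjusted p = 0.00212).

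The 22 members that were not tested were mostly tissue forms and gene copies. Cox4i2, the lung form of subunit 4, Cox6b2 and Cox8c, forms of the testis, and Cox8b, a form of heart and muscle, had 0 counts in all 9 libraries. The muscle forms Cox6a2 and Cox7a1 had at most 3 and 15 counts in a library, and Ndufa4l2, a hypoxia-induced relative of Ndufa4, at most 11. In the pump, Atp6v1b1, Atp6v1e2 and Atp6v1g3 had 0 counts in all libraries and Atp6v0e2 and Atp6v1c2 at most 5 and 3. The gastric and colonic proton pump genes Atp4a and Atp12a, to which the term also extends, had 0 counts, and Atp4b had 1 count in all. Of the gene copies Gm20538, Gm21987, Gm5426, Ndufb11b and Cox5b-ps, all but Cox5b-ps had 0 counts, and Cox5b-ps had 5 in all. A count of 0 in a library allows up to 3 counts, so low expression of these forms was not detectable at this depth.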

How the data were processed

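RNA of 9 wells of mouse RGCs was sequenced after enrichment of mRNA with oligo(dT), and groups were taken from the labels. The authors deposited, for each gene and library, an expected count, an estimated read number that need not be whole and has had no normalization. They also deposited FPKM, which they scaled for gene length and library size. The submitters' processing notes name the build mm10. An aligner, a counting program or a strand setting was not given in the sources used here. Members were chosen by the pathway annotation in the same table, whose other annotation columns were not used. The members and lists were chosen with earlier results of these data known.

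Expected counts were rounded to whole numbers and tested with edgeR 4.0.16 in R 4.3.3, with filterByExpr, TMM factors (0.9562 to 1.034), 1 mean per group over all 9 libraries, 6 residual degrees of freedom, the quasi-likelihood F test and Benjamini-Hochberg adjustment over 12145 genes. The common biological coefficient of variation was 3.78%. Replicates differed by 2.21 to 4.95 times their counting noise, so none was a repeat of another. CPM are TMM-scaled. On simulated data drawn from these libraries, changes of 0.25 on the log2 scale were planted in genes above a set average level. They were recovered in 81% of planted genes for aging against normal RGCs and in 74% for the medium group against aging RGCs. Genes of lower level were not planted, and far fewer genes changed in the simulated data than were called in the real data.

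Alternatives were DESeq2 1.42.0, no TMM factors, upper-quartile factors, totals without mitochondrial-encoded genes, no low-count filter, 1 CPM in 3 libraries, a replicate block, a log2 fold change of at least 1, a fit to only the 2 groups compared, limma 3.58.1 on log2(FPKM + 1) and log2(FPKM + 0.1), each library left out in turn, and, for the mitochondrial share, the FPKM sum. FPKM carry no TMM scaling. Length classes, the members Uqcrc1 and Uqcr10, the V1 genes beyond isoform families, and the list genes Tfam, Slc25a4 and Slc25a5 were chosen after values were seen. Otherwise named genes were the mitochondrial-encoded genes, the 5 called members with the largest change in each direction and comparison at an average log2 CPM of at least 1 without overlap, DEGs, the member of each role with the highest FPKM, isoform families, and the 2 called genes with the largest change of each list. Of the genes this rule picked, 1 is not reported here. Overlapping genes were read from GENCODE M21, and promoter windows and their coordinates from RefSeq on GRCm38.p6.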

Additional observations from a re-analysis of the deposited data

How the results depend on the processing

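Counts of called genes are given as aging against normal RGCs, the medium group against aging RGCs, and the medium group against normal RGCs. The V0 counts of the first 2 comparisons, 9 higher and 8 lower, were the same in each of 19 alternatives that kept the adjusted p as the only threshold. With a log2 fold change of at least 1, the respiratory, pump, V0 and mitochondrial-encoded counts fell to 0 in each comparison and direction, except for 1 pump gene, which is a V0 gene, higher in aging RGCs, 1 lower with the medium, and 1 respiratory gene higher in the medium group against normal RGCs. Without TMM factors, respiratory genes numbered 19 higher and 11 lower in the second comparison and 25 and 10 in the third. In that setting pump genes numbered 0 higher and 8 lower in the third, of which V0 genes were 0 and 4, and mitochondrial-encoded genes were 4 lower in the first and 2 higher in the second. With limma on log2(FPKM + 1) and equally on log2(FPKM + 0.1), respiratory genes numbered 16 higher in the second and 22 higher and 7 lower in the third, pump genes 0 and 8 in the third, V0 genes 0 and 4, and mitochondrial-encoded genes 2 higher in the second and 5 higher in the third. These values share the lack of TMM scaling. Without TMM factors, 2534 of all 12145 genes tested were higher and 3084 lower in the first comparison. The same counts were 2346 and 4199 in the second and 2593 and 4889 in the third. With limma on log2(FPKM + 1) they were 2069 and 3415 in the second and 2367 and 4149 in the third. The mitochondrial-encoded count lower in the first comparison was 3 without a low-count filter and 2 with only the 2 groups compared, the count lower in the second was 3 with DESeq2, and upper-quartile factors left 1 V0 gene higher in the third. As a share of the FPKM sum, mitochondrial-encoded genes took 19.0%, 19.9% and 19.7% in normal RGCs, aging RGCs and the medium group.

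The replicate number as a block gave 2 mitochondrial-encoded genes lower in the first comparison in place of 1, and no other count moved by over 1.5 times. Deviations of libraries with the same number had correlations of -0.0504 to 0.0483, and the main fit used no pairing by number.

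Leaving out each library in turn gave, in the first comparison, 11 to 19 respiratory genes higher and 4 to 7 lower, 11 to 12 pump genes higher and 0 to 0 lower, 9 to 9 V0 genes higher and 0 to 0 lower, and 6 to 7 mitochondrial-encoded genes higher and 1 to 4 lower. In the second, 26 to 34 respiratory genes were higher and 5 to 7 lower, 0 to 0 pump genes higher and 10 to 12 lower, 0 to 0 V0 genes higher and 8 to 8 lower, and 3 to 7 mitochondrial-encoded genes higher and 4 to 5 lower. In the third, 33 to 48 respiratory genes were higher and 2 to 5 lower, 2 to 5 pump genes higher and 4 to 5 lower, 1 to 2 V0 genes higher and 2 to 2 lower, and 7 to 9 mitochondrial-encoded genes higher and 2 to 3 lower. Counts that moved by over 1.5 times were the 11 respiratory genes without aging replicate 1, mitochondrial-encoded genes lower in the first comparison, at 4 without normal replicate 1 and 2 without normal replicate 2, aging replicate 3 or medium replicate 1, and those higher in the second, at 3 without aging replicate 1. In the third, respiratory genes lower were 2 without normal replicate 2 or medium replicate 1, and without normal replicate 1 pump genes higher were 2 and V0 genes higher 1.

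Of 134 called changes of single genes, 99 were called with the same sign in every alternative run. The most often lost among members were Lhpp in the first comparison, in 8 of 19 alternatives, and Atp6v1e1 in the second and Cox8a in the third, in 7 each. The sign changed for mt-Atp6 in the second comparison, at -0.01253 without TMM factors and -0.01221 with either limma setting, for mt-Nd1 in the third, at -0.03019 without TMM factors and -0.02959 with either limma setting, and for Atp6ap1 in the third, at -0.0004061 and -0.0004112 with limma on log2(FPKM + 1) and log2(FPKM + 0.1). In simulated data, 81% and 74% of planted changes of 0.25 on the log2 scale were recovered for the first 2 comparisons. Far fewer genes changed in those data than were called here, which makes the adjustment of p stricter there. These shares therefore do not measure what was missed in the real data. The changes were planted only in genes above a set average level, so recovery for genes of lower level, such as Lhpp, was not measured. The 22 members under the filter had too few counts for a test.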
